A study of Mus musculus with 21 samples.

Results

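RNA levels of 8 genes that mark the vessels and connective tissue of a lymph node were measured in inguinal skin-draining lymph nodes (SDLNs) and in skin of wild-type (WT) and *Ifnk* transgenic (TG) mice. The genes are *Glycam1*, *Madcam1* and *Chst4* of high endothelial venules, *Prox1*, *Flt4* and *Pdpn* of lymphatic vessels and reticular stroma, and the homeobox genes *Meox1* and *Meox2*. They were picked by symbol, 8 of 55491 gene rows in each tissue's table, and *Meox1* was included because of its low level in SDLNs of irradiated WT mice. Values from that contrast are therefore given as a description without a test.

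High endothelial venules are the blood vessels through which naive lymphocytes enter a lymph node. Their tall endothelial cells carry sulfated sugars that bind L-selectin on lymphocytes, and signals through the lymphotoxin β receptor keep them in this state. Lymphatic endothelial cells line the vessels and sinuses that bring lymph and dendritic cells from the skin, and they hold their identity through the transcription factor PROX1. Fibroblastic reticular cells form the scaffold of the node and make the chemokines and survival factors that position lymphocytes.

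The SDLNs came from 4 groups of 3 libraries each: WT and *Ifnk* TG mice without UVB (NoTx) and WT and *Ifnk* TG mice that received UVB. The UVB dose was 250 mJ/cm2, emitted at 310 nm onto the shaved back on 3 days of each of 2 weeks, and nodes were taken after 2 further weeks. The skin came from mice of 12 months without UVB, as 3 WT libraries, 2 libraries of nonlesional (NL) *Ifnk* TG skin and 4 libraries of lesional (L) *Ifnk* TG skin. The transgene is driven by a keratin promoter, which directs *Ifnk*, a type I interferon, to keratinocytes of the epidermis. The WT mice are BALB/c, and the TG line was made on a different strain and then backcrossed onto BALB/c. No mouse, sex or body site is given for a library, and the age of the node donors is not in the labels. For irradiated SDLNs the study counts as many mice as there are libraries in each group. For the other groups nothing used here says that libraries came from separate mice, and the p-values then measure only the spread between libraries, which may be technical. Node tissue was pressed through a strainer before lysis, and what the mesh kept back is not in the libraries.

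Libraries held 27599809 to 36428435 counts in SDLNs and 40499078 to 56511276 in skin. Summed over 6 lymphocyte genes, SDLN libraries reached 3697 to 4473 CPM (counts scaled to the normalized library size) against 1.20 to 2.51 CPM for 6 keratinocyte genes. In skin the same sums were 53.3 to 95.6 CPM and 7803 to 22665 CPM, so the tissue labels matched the markers. All 12 SDLN libraries held counts of 3 Y-linked genes, 4151 or more in sum. None of the 9 skin libraries held more than 1 such count, and 2 of them, NL replicate 3 and L replicate 6, did not have *Xist* above 1000 counts either. In SDLNs *Xist* had 42 counts at most. The tissues thus differ in these sex-linked genes too, and a difference between SDLNs and skin cannot be told apart from one of sex. Replicates carry the running number of their label, 1 to 12 in SDLNs and 2 to 10 in skin.

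Sequence before the transcription start was available for 7 of the 8 genes (RefSeq, GRCm38.p6), and *Meox1* had no entry. The 250 bases before the start are shown for *Glycam1* and *Meox2*, the 2 genes whose levels ran most closely together across SDLN libraries, and for *Madcam1*, the only gene of the set with matches to a κB motif. Capitals mark matches to 3 motifs searched on both strands: the TATA motif TATAAA, the homeodomain motif TAATTA and the κB motif, written as GGG and TTTCC with any 2 bases between. Each sequence reads 5′ to 3′ toward its gene, from chr15:103565082-103565331 (minus strand), chr10:79664309-79664558 (plus strand) and chr12:37108290-37108539 (plus strand).
Glycam1: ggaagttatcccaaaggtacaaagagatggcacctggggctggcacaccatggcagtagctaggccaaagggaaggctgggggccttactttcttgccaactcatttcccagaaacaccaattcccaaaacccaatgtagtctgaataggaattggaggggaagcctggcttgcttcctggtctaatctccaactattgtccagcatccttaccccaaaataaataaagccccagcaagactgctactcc
Madcam1: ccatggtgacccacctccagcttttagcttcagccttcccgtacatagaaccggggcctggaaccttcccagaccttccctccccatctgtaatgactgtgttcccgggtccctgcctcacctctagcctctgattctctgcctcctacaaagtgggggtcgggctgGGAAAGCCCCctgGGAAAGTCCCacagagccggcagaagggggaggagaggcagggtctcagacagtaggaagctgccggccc
Meox2: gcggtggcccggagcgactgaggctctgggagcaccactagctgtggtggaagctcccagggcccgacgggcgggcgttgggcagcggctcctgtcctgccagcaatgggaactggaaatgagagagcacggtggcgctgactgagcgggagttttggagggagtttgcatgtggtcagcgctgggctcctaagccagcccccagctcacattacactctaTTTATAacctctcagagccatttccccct

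*Madcam1* held 2 κB matches on the reverse strand, starting 83 and 70 bases before the start, where 1.41% of all 32851 promoter windows of this length held any. *Meox2* held 1 TATA match 29 bases before its start, on the reverse strand, and 12.4% of all windows held one. *Prox1* held 1 TATA match before the first of its 2 start sites. The homeodomain motif was found in 4.84% of all windows and in none of the 8 windows of these genes. *Glycam1*, *Chst4*, *Flt4* and *Pdpn* held no match to the 3 motifs, which says only that these letters are not in this window.

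In SDLNs of untreated WT mice the 8 genes spanned a wide range of levels. Per kilobase of exon, *Glycam1* was highest at 3.09 ± 0.808 CPM (SD, n = 3), followed by *Meox1* at 1.12 ± 0.561 and *Meox2* at 0.847 ± 0.0379. *Madcam1* followed at 0.387 ± 0.222 CPM per kilobase, then *Pdpn* at 0.272 ± 0.0947, *Chst4* at 0.198 ± 0.0319, *Prox1* at 0.191 ± 0.0305 and *Flt4* at 0.123 ± 0.0237. The ranges of *Meox1* and *Meox2* overlapped, as did those of each neighbouring pair from *Madcam1* to *Prox1*. *Glycam1* stood above all others, *Madcam1* lay below *Meox2* and *Flt4* below *Prox1*, each without overlap. These are low levels for a node: *Pdpn*, *Madcam1* and *Chst4* had between 7 and 27 counts in each of these libraries, and differences in them rest on few counts.

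All 8 genes had lower means after UVB than without it in WT SDLNs, and 5 of them had no irradiated library within the range of the untreated ones. In this comparison 17.3% of the 16173 tested genes were lower without overlap. Since *Meox1* was chosen on these samples, nothing further is read from the count. The median log2 fold change of the 8 genes was -1.23, beside -0.0048 for all tested genes. In bulk tissue, fewer cells of a type and less RNA per cell cannot be told apart.

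*Glycam1* (ENSMUSG00000022491, chr15:103562759-103565081) encodes a secreted, mucin-like ligand of L-selectin and is the most abundant high endothelial transcript of the set. It had 153, 233 and 255 counts in the WT NoTx libraries and 110, 72 and 61 in the WT UVB libraries. In CPM this was 6.59 ± 1.72 against 2.60 ± 0.718 (SD, n = 3 each), a 2.54-fold lower mean and a log2 fold change of -1.34 (SE 0.26). Every irradiated WT library lay below every untreated one.

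The other venule genes were weaker in signal. *Chst4* (ENSMUSG00000035930, chr8:110029153-110039740), a sulfotransferase that makes the L-selectin ligand, had 13, 17 and 14 counts without UVB and 6, 4 and 7 with it. Its mean was 2.51-fold lower and its libraries did not overlap, with a log2 fold change of -1.30 (SE 0.65). *Madcam1* (ENSMUSG00000020310, chr10:79664559-79668537), the adhesion molecule bound by the integrin α4β7, had 20, 27 and 7 counts without UVB and 24, 6 and 5 with it. Its groups overlapped, and the log2 fold change of -0.59 was smaller than its SE of 0.68.

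The lymphatic genes did not move as a block in WT SDLNs. *Prox1* (ENSMUSG00000010175, chr1:190118035-190170714), the master regulator of lymphatic identity, had 51, 60 and 45 counts without UVB and 18, 14 and 35 with it, a 2.26-fold lower mean without overlap (log2 fold change -1.17, SE 0.37). *Flt4* (ENSMUSG00000020357, chr11:49609263-49652739), the receptor for VEGF-C, had 32, 27 and 40 counts without UVB and 32, 27 and 31 with it, and its log2 fold change was -0.07 (SE 0.31). The transcription factor and the receptor of the same vessels thus had different values in the same libraries. *Pdpn* (ENSMUSG00000028583, chr4:143267431-143299564), the membrane glycoprotein podoplanin of lymphatic endothelium and reticular cells, had 14, 22 and 12 counts without UVB and 19, 1 and 8 with it. Its groups overlapped, at a log2 fold change of -0.75 (SE 0.72).

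The homeobox genes had large differences, and *Meox1* was chosen for its low level in these WT UVB libraries, so its size is not ranked. *Meox1* (ENSMUSG00000001493, chr11:101877510-101894374), known from somite development and from activated fibroblasts, had 65, 125 and 52 counts in WT NoTx and 13, 6 and 8 in WT UVB. Its mean went from 2.49 ± 1.25 to 0.285 ± 0.0927 CPM (SD, n = 3 each), an 8.76-fold lower mean and a log2 fold change of -3.10 (SE 0.43). *Meox2* (ENSMUSG00000036144, chr12:37108540-37179534), its paralog with roles in limb muscle and vascular endothelium, had 65, 67 and 63 counts without UVB and 19, 13 and 12 with it. This was a 4.25-fold lower mean and a log2 fold change of -2.08 (SE 0.45). Neither gene had an irradiated WT library near the untreated range.

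Some counts of these genes may belong to neighbours. *Meox1* overlaps the antisense gene *Gm11551*, *Prox1* overlaps *Gm28172* and *Prox1os*, and *Meox2* contains the sense-intronic gene *Gm48617*. Whether counting used the strand is not given in the sources used here, so reads of such pairs cannot be told apart.

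**Figure D1:**
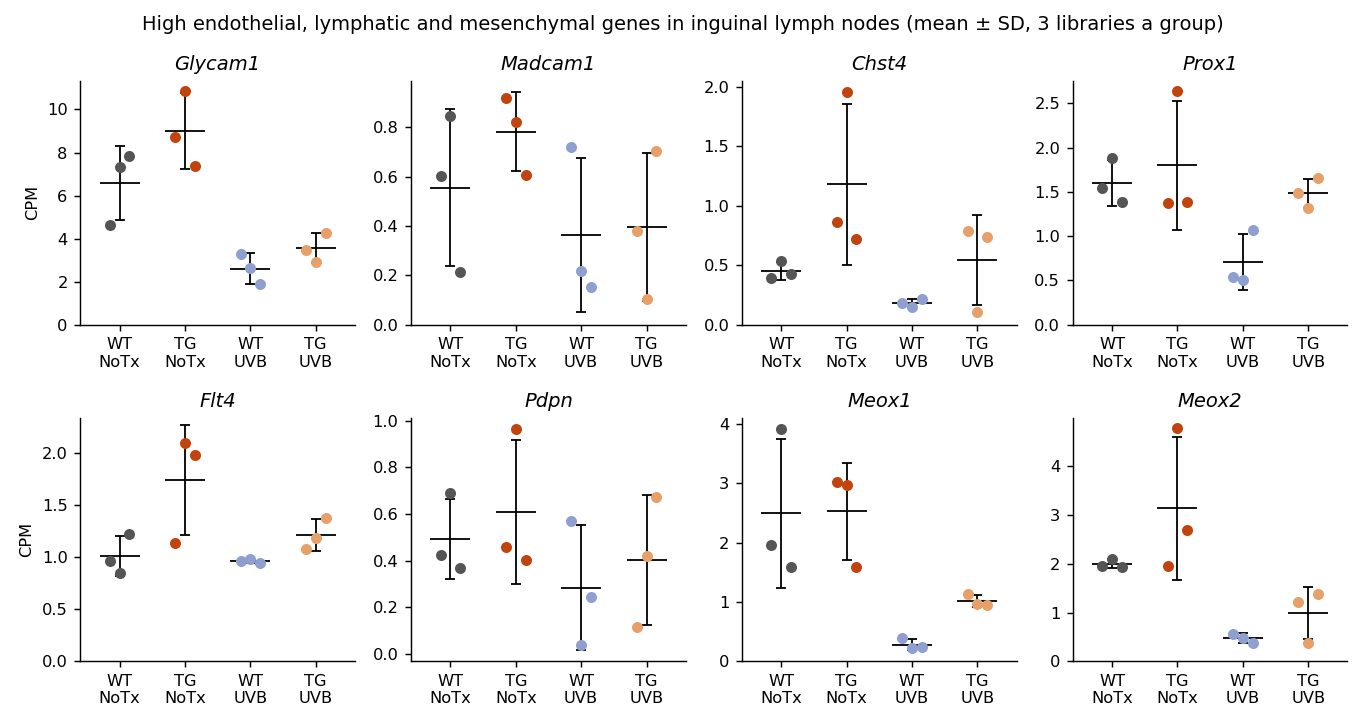
Level of each gene in CPM (linear axes that start at or just below 0) in the 12 SDLN libraries; points are libraries, horizontal bars the group mean and vertical bars 1 SD over 3 libraries. *Glycam1*, *Meox1* and *Meox2* have all UVB libraries below all NoTx libraries in both genotypes, while *Flt4*, *Madcam1* and *Pdpn* overlap.

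The response to UVB in *Ifnk* TG SDLNs was measured on libraries that had no part in the choice of *Meox1*. All 8 genes again had lower means after UVB, with a median log2 fold change of -1.03 beside 0.019 for all tested genes. None of the 8 passed an adjusted p of 0.05 with edgeR's quasi-likelihood test, and neither did any of the 16173 tested genes (0.0% called). Before adjustment, 1507 genes had p under 0.05 (9.32%), 3 of the 8 among them. The libraries of these 3, *Glycam1*, *Meox1* and *Meox2*, did not overlap, where 7.11% of all tested genes were lower without overlap.

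*Glycam1* had 322, 383 and 256 counts in TG NoTx and 119, 84 and 140 in TG UVB. The mean went from 8.98 ± 1.76 to 3.56 ± 0.685 CPM (SD, n = 3 each), 2.53-fold lower, and the log2 fold change of -1.33 (SE 0.26) was close to that in WT. Its edgeR adjusted p was 0.154. With DESeq2 it was 0.000555, and without TG UVB replicate 12 edgeR gave 0.0297, so whether *Glycam1* is called depends on the tool and on 1 library.

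*Meox2* had 72, 168 and 93 counts in TG NoTx and 42, 11 and 45 in TG UVB, a 3.15-fold lower mean. The log2 fold change was -1.64 (SE 0.42) with an edgeR adjusted p of 0.248 and a DESeq2 adjusted p of 0.0309. *Meox1* had 112, 105 and 55 counts in TG NoTx and 39, 28 and 31 in TG UVB. Its mean was 2.48-fold lower, with a log2 fold change of -1.31 (SE 0.38) and an edgeR adjusted p of 0.315, and no alternative brought it past the threshold. The 3 irradiated TG libraries of *Meox1* lay close together, at 1.02 ± 0.101 CPM, between the untreated level and that of irradiated WT SDLNs.

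The remaining genes were within their spread in TG SDLNs. *Chst4* had 32, 69 and 25 counts without UVB and 27, 3 and 24 with it (log2 fold change -1.10, edgeR adjusted p = 0.556). *Madcam1* had 34, 29 and 21 counts against 13, 3 and 23 (log2 fold change -0.96, edgeR adjusted p = 0.689). *Pdpn* had 17, 34 and 14 counts against 4, 12 and 22 (log2 fold change -0.60, edgeR adjusted p = 0.833). In each of these the groups shared part of their range, with 1 irradiated library very low.

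The lymphatic pair also overlapped. *Flt4* had 42, 74 and 69 counts in TG NoTx and 37, 34 and 45 in TG UVB, a log2 fold change of -0.52 (edgeR adjusted p = 0.613). *Prox1* had 51, 93 and 48 counts against 51, 38 and 54, a log2 fold change of -0.27 (edgeR adjusted p = 0.851). Without TG NoTx replicate 5, the library with 93 counts, the *Prox1* value turned to 0.10.

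**Figure D2:**
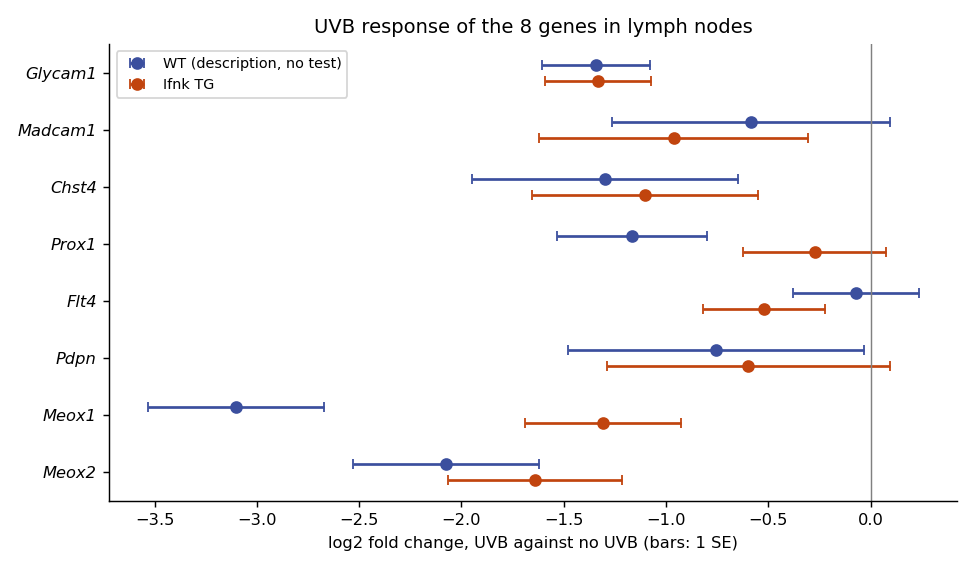
Log2 fold change of each gene after UVB in WT (blue) and *Ifnk* TG (orange) SDLNs, with bars of 1 SE; negative values are lower after UVB. The points of *Glycam1* coincide at -1.34 and -1.33, and those of *Meox1*, which was chosen on the WT libraries, lie at -3.10 and -1.31.

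The UVB responses of the genotypes were then set side by side. The TG response minus the WT response was 1.79 (SE 0.57) on the log2 scale for *Meox1* and 0.89 (SE 0.50) for *Prox1*. It was 0.44 (SE 0.61) for *Meox2* and 0.01 (SE 0.34) for *Glycam1*, and -0.45 (SE 0.43) for *Flt4*. These differences hold the contrast on which *Meox1* was chosen, so they are given without a test and *Meox1* is not ranked among them.

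Irradiated SDLNs were then compared between genotypes. *Meox1* was chosen for its level in the WT UVB libraries and is left out of the counts here. The other 7 genes had higher means in TG UVB than in WT UVB, and 2 did so without overlap, *Prox1* and *Flt4*, where 5.39% of tested genes were higher without overlap. No gene of the 16173 was called with edgeR (0.0%), 1131 had an unadjusted p under 0.05, and DESeq2 called 18, none of the 7. *Prox1* was 2.10-fold higher in TG (log2 fold change 1.06, SE 0.37, edgeR adjusted p = 0.673). *Chst4* was 3.01-fold higher (log2 fold change 1.58, SE 0.64, edgeR adjusted p = 0.685) and *Meox2* 2.11-fold higher (1.08, SE 0.46, edgeR adjusted p = 0.701). *Meox1* was 3.58-fold higher, at 1.82 (SE 0.44), which is a description and was not tested.

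Without UVB the same 7 genes also had higher means in TG than in WT SDLNs. Again no gene was called with edgeR (0.0%), with 549 of all genes at an unadjusted p under 0.05 and 2 calls by DESeq2, none of them among the 7. *Chst4* was 2.61-fold higher (1.38, SE 0.56, edgeR adjusted p = 1.0) and was the 1 gene of the 7 whose libraries did not overlap, where 5.52% of tested genes were higher without overlap. *Flt4* was 1.72-fold higher (0.78, SE 0.30, edgeR adjusted p = 1.0). *Glycam1* was 1.36-fold and *Meox2* 1.57-fold higher, both within their spread, and *Meox1*, given without a test, had 2.49 CPM in WT and 2.53 in TG. The genotype comparisons share libraries with the UVB comparisons and are not independent of them.

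TG NoTx replicate 5 was the highest of all 12 SDLN libraries for 6 of the 8 genes, among them *Glycam1*, *Chst4*, *Prox1* and *Meox2*. It also had the highest summed lymphatic list, 35.3 CPM where the other 11 libraries had 9.23 to 21.8. Without it, *Prox1* and *Pdpn* were lower in TG NoTx than in WT NoTx, at log2 fold changes of -0.22 and -0.20, and *Chst4* remained higher at 0.80.

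Wider marker lists of the same tissue compartments were set beside these genes, and some of the lists hold genes of the set. After UVB, the tested genes of a blood endothelial list were lower in 9 of 9 cases in WT and in 9 of 9 in TG, with median log2 fold changes of -0.67 and -0.58. Of a node stromal list, 17 of 20 genes were lower in WT (median -1.13) and 16 of 20 in TG (-0.83). Of a lymphatic list, *Prox1*, *Flt4* and *Pdpn* included, 11 of 13 were lower in each genotype, with medians of -0.72 and -0.55. Of 5 tested mesenchymal transcription factors, *Meox1* and *Meox2* included, 4 were lower in WT (median -2.08) and 5 in TG (-1.31). The WT median is the value of *Meox2* and the TG median that of *Meox1*, so neither adds to what these genes show. None of the genes of these lists was called in TG with edgeR, and the WT values carry no test.

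Venule genes other than the 3 of the set did not all share the lower level. Of 15 high endothelial genes, the 3 of the set included, 10 were lower in WT and 9 in TG, with medians of -0.59 and -0.45. These 3 were lower in both genotypes, and the WT median is the value of *Madcam1* itself. *Fut7*, the fucosyltransferase that completes the L-selectin ligand, was 1.61 ± 0.279 CPM in WT NoTx and 2.73 ± 0.392 in WT UVB (SD, n = 3 each). In TG it was 2.01 ± 0.635 CPM without UVB and 2.05 ± 0.347 with it. *Chst2*, the partner sulfotransferase of *Chst4*, was 5.75 ± 1.26 against 6.99 ± 0.356 CPM in WT and 7.71 ± 0.662 against 7.41 ± 2.54 in TG. Both enzymes are also made by leukocytes. *Podxl*, named after its values were seen, had 220 counts in TG UVB replicate 11 and 1 to 23 in every other SDLN library, so its high mean in TG UVB rests on that library.

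Lymphotoxin pathway genes stayed near the median of all genes, at -0.07 in WT and -0.09 in TG over 8 tested genes. The 6 lymphocyte genes had medians of -0.12 and 0.12. Erythroid genes, by contrast, moved with the vessel and stromal genes. All 5 tested were lower without overlap in each genotype, with medians of -2.98 in WT and -1.48 in TG. Of all tested genes, 17.3% were lower without overlap in WT and 7.11% in TG. The erythroid sum was 121 to 261 CPM in WT NoTx, 10.8 to 39.5 in WT UVB, 261 to 303 in TG NoTx and 26.1 to 159 in TG UVB, and no more than 1 of the 6 genes was at 0 in a library. Its part in the lower values of the 8 genes was not tested.

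Genes of fat and skeletal muscle had low sums, which do not by themselves show that tissue from around the node was present. The sum of 8 adipocyte genes was 4.59 to 11.8 CPM in WT NoTx and 1.42 to 2.79 in WT UVB, with 3 genes at most at 0. In TG it was 3.31 to 9.22 without UVB. With UVB it was 2.62, 14.2 and 4.44 in TG replicates 10, 11 and 12, so the high value rests on replicate 11. *Lpl* had 11.6 CPM of that 14.2. In WT NoTx, *Lpl* and *Fabp4* had means of 2.97 and 2.84 CPM of a mean adipocyte sum of 7.13, and *Adipoq* 0.388. The sum of 6 skeletal muscle genes was 7.71 to 8.87 CPM in WT NoTx and 3.16 to 6.67 in WT UVB, and in TG 10.1 to 17.0 against 4.32 to 8.35. *Des*, which is also in the node stromal list, had 5.68 CPM of a mean muscle sum of 8.30 in WT NoTx and 2.02 of 4.35 in WT UVB. In TG it had 9.86 of 12.5 without UVB and 3.51 of 5.77 with it. *Ckm* had 0.123 CPM in WT NoTx and 0.194 in WT UVB. No more than 2 of the muscle genes were at 0 in a library, and the part of either tissue was not tested. The 6 keratinocyte genes summed to no more than 2.51 CPM in any SDLN library, with up to 4 of them at 0.

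**Figure D3:**
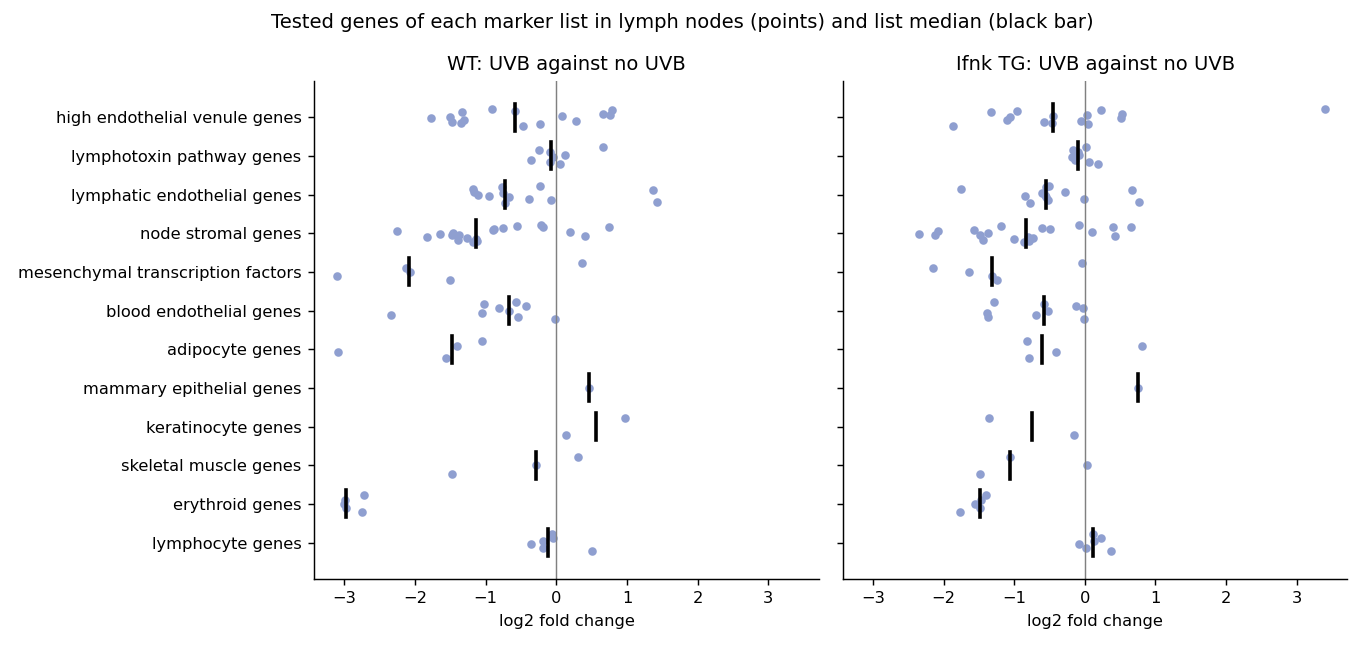
Log2 fold change after UVB of every tested gene of 12 marker lists (points) in WT (left) and *Ifnk* TG (right) SDLNs, with the list median as a black bar; lists are written by hand and some share genes. Erythroid and mesenchymal transcription factor medians lie furthest to the left, at -2.98 and -2.08 in WT, and lymphotoxin and lymphocyte medians near 0. The -2.08 is the value of *Meox2* itself.

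As a description of likeness, every tested gene was ranked by Pearson's r with *Meox1*, *Glycam1* and *Prox1* over the 12 SDLN libraries on log2 CPM. The libraries form 4 groups, so r holds the group differences too. These include the WT contrast on which *Meox1* was chosen, so nothing further is read from any r with *Meox1*. *Meox1* ran most closely with *Nfatc4* (r = 0.95), *Mrpl58* (0.94), *Ogn* (0.94), *Tagln* (0.93) and *Nfib* (0.92). *Ogn*, an extracellular matrix proteoglycan, and *Tagln*, an actin-binding protein of smooth muscle, are known from connective tissue. Which cells held *Meox1* was not tested. Genes that ran closely with *Glycam1* included *Bst1* (0.95), *Dpysl3* (0.94), *Il7* (0.94) and *Steap4* (0.94), of which *Il7* encodes the survival cytokine made by reticular cells. *Prox1* ran most closely with *Dus2* (0.96), *Flrt3* (0.95), *Tspan4* (0.94), *Acadvl* (0.91) and *Ramp2* (0.90).

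Among the 8 genes themselves, r over the SDLN libraries was highest for *Glycam1* with *Meox2* (0.92), *Chst4* with *Meox2* (0.89) and *Meox1* with *Glycam1* (0.87). The lowest were *Flt4* with *Madcam1* (0.23), *Flt4* with *Meox1* (0.33) and *Prox1* with *Madcam1* (0.34). The highest r of *Flt4* was 0.62, with *Chst4*. In skin the order was different: over 9 libraries *Prox1* and *Flt4* had r = 0.92, and *Meox1* and *Meox2* had r = 0.06.

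In skin the set split by tissue. The venule genes were at the edge of detection, whereas *Pdpn* was the most abundant, at 15.5 ± 5.55 CPM per kilobase of exon in WT skin (SD, n = 3). *Meox2* followed at 6.12 ± 1.71 CPM per kilobase, then *Meox1* at 2.42 ± 0.420, *Flt4* at 1.03 ± 0.125 and *Prox1* at 0.460 ± 0.114. Epidermis and hair follicles also express *Pdpn*, so its level there is not that of lymphatic vessels alone. No neighbours in this order overlapped in WT skin. SDLN and skin tables were scaled separately.

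L and WT skin differed widely, with 8237 of 19101 tested genes called by edgeR (43.1%). Of the 5 genes of the set that could be tested in skin, 1 was called. *Meox2* had 750, 412 and 664 counts in WT skin, 727 and 329 in NL and 506, 364, 378 and 479 in L. In CPM it was 14.4 ± 4.05 in WT (SD, n = 3), 8.07 and 13.9 in NL and 8.79 ± 0.389 in L (SD, n = 4), a 1.64-fold lower mean in L than in WT. *Meox2* fell by 0.72 on the log2 scale (SE 0.23, edgeR adjusted p = 0.0361), and its 4 L libraries lay below its 3 WT libraries, as did those of 23.4% of tested genes. The call is fragile: with *Xist* as a covariate the edgeR adjusted p was 0.0558, and it was 0.0552 to 0.128 on leaving out any 1 of the L libraries or WT replicate 8 or 10.

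The other 4 did not pass in L against WT. *Prox1* had 216, 151 and 124 counts in WT and 52, 141, 136 and 159 in L (log2 fold change -0.59, SE 0.40, edgeR adjusted p = 0.264), with L replicate 4 far below the rest. *Flt4* had 370, 400 and 301 counts in WT and 227, 304, 323 and 370 in L (-0.41, SE 0.23, edgeR adjusted p = 0.174). Both lymphatic genes had the same low library. *Pdpn* had 726, 1408 and 1398 counts in WT and 1155, 790, 853 and 1738 in L (-0.31, SE 0.28, edgeR adjusted p = 0.395). *Meox1* had 282, 215 and 187 counts in WT and 179, 222, 242 and 353 in L (-0.08, SE 0.24, edgeR adjusted p = 0.819). The groups of each of these genes overlapped.

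Against NL skin, which comes from the same genotype, 4782 genes were called in L (25.0%) and none of the 5. NL libraries had 154 and 144 counts of *Prox1*, 328 and 348 of *Flt4*, 1022 and 625 of *Pdpn* and 232 and 204 of *Meox1*. The log2 fold changes of L against NL ran from -0.33 for *Prox1* to 0.38 for *Pdpn*, with edgeR adjusted p from 0.403 to 0.797. Between NL and WT skin no gene was called by edgeR (0.0%), although 1465 had an unadjusted p under 0.05 and DESeq2 called 62, none of the 5. The widest value there was -0.69 for *Pdpn* (SE 0.34, edgeR adjusted p = 0.685).

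The venule genes did not pass the filter on low counts in skin. *Chst4* had 5, 3, 5 and 6 counts in the 4 L libraries and 0 in all WT and NL libraries. Taking 3 counts as the most that a count of 0 allows in each library, the L mean was 1.34-fold that floor in WT and 1.46-fold that in NL. This allows for counting error in the groups at 0 only. The error of the few L counts is not covered, so neither value is a lower bound of the difference. *Chst4* counts were found in L alone, so no p-value from a fit without the filter is given for it. *Madcam1* had 9, 11, 9 and 0 counts in L, 1 and 5 in NL and 0, 3 and 1 in WT, and its unfiltered edgeR adjusted p for L against WT was 0.287.

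*Glycam1* had 6, 0, 17 and 4 counts in L skin, 1 and 0 in NL and 1, 0 and 6 in WT. *Glycam1* is also made by mammary epithelium, and milk protein genes were present in some of these libraries. *Csn2*, the gene of β-casein, had 150 counts in L replicate 6 and 206 in WT replicate 10, the 2 libraries with 17 and 6 *Glycam1* counts. It had 15 counts at most in every other skin library. *Csn3*, the gene of κ-casein, had 118, 60, 72 and 108 counts in L replicates 4 to 7, 823 in WT replicate 10 and 0 to 5 in the other WT and the NL libraries. The skin libraries with 4 or more *Glycam1* counts thus all held *Csn3*, and L replicate 5 held *Csn3* at 0 *Glycam1* counts. The part of mammary tissue in these counts was not tested.

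**Figure D4:**
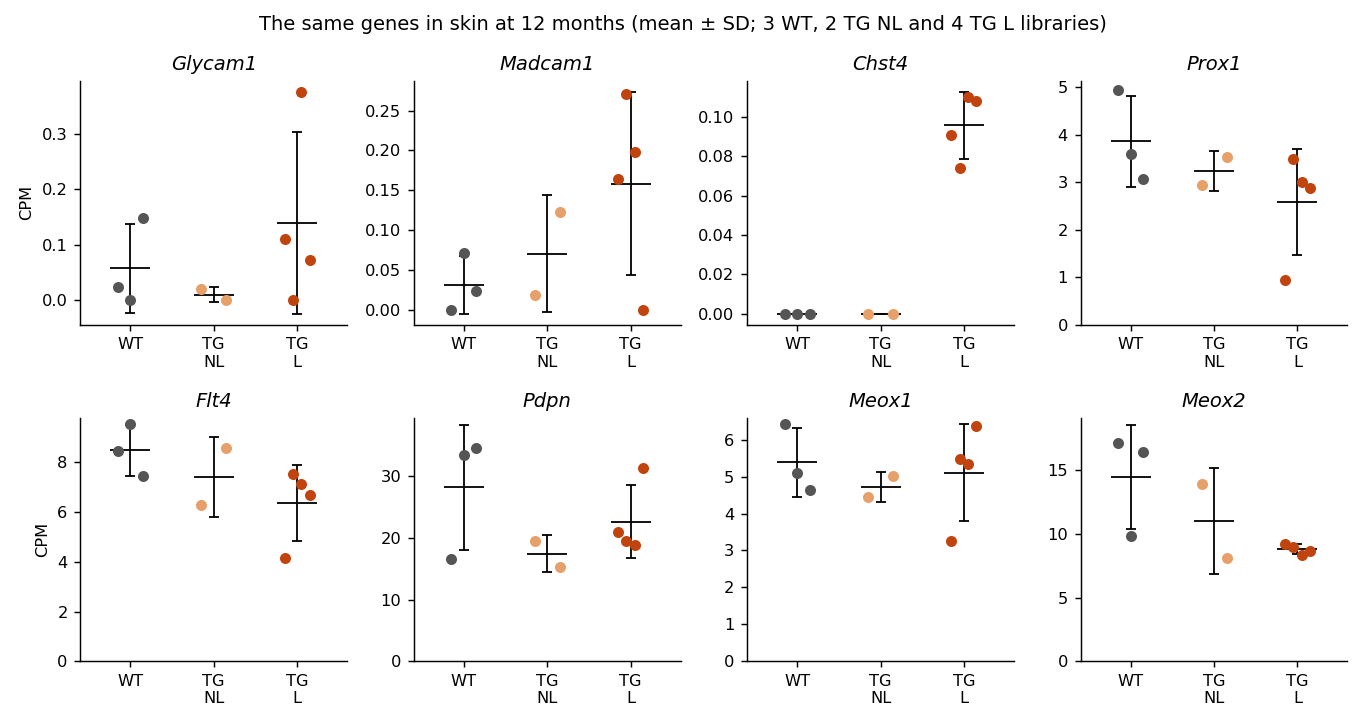
Level of each gene in CPM (linear axes that start at or just below 0) in the 9 skin libraries; points are libraries, horizontal bars the group mean and vertical bars 1 SD over 3 WT, 2 NL and 4 L libraries. *Chst4* is above 0 in the 4 L libraries only, and *Meox2* lies between 8.33 and 9.21 CPM in L and between 9.78 and 17.1 CPM in WT.

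The wider lists of the same compartments also held called genes in skin. Of 9 blood endothelial genes, 5 fell in L against WT, led by *Kdr* (-1.21), *Cldn5* (-1.14) and *Cdh5* (-1.11), a VEGF receptor and 2 junction proteins (edgeR adjusted p = 0.00773, 0.00431 and 0.0281). Of 16 lymphatic genes, 5 fell and none rose, with *Lyve1*, the hyaluronan receptor, at -2.22, the chemokine scavenger *Ackr2* at -1.18 and *Reln* at -1.14. Of 10 tested mesenchymal transcription factors, 3 fell, *Prrx1* (-1.10), *Meox2* and *Twist1* (-0.66). Of all 19101 tested genes, 3851 were called lower and 4386 higher, together the 43.1% given above. None of these lists was tested as a set.

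Among 12 tested high endothelial genes, 5 fell and 2 rose in L against WT. *Cd34* (-1.58) and *Cd300lg* (-1.49) fell, and the fucosyltransferase *Fut4* rose (1.40). In WT skin *Cd34* alone had 344 CPM of the list's mean sum of 586, where *Glycam1* had 0.0571. The calls of this list in skin therefore cannot be assigned to high endothelial venules. Of 8 lymphotoxin pathway genes, 2 rose, *Ltb* (2.20, edgeR adjusted p = 0.00194) and *Tnfsf14* (1.92, edgeR adjusted p = 0.00207), both ligands that act on the lymphotoxin β receptor. Of 19 tested node stromal genes, 3 rose and 3 fell. *Tnfsf11*, which encodes RANKL, was among those that rose, but it had 2 to 3 counts in WT libraries against 37 to 85 in L and passed the filter only through L, so no fold is given. The T cell zone chemokine *Ccl19* rose (2.29) and the muscle filament gene *Des* fell (-3.71). Beside the same background of 43.1%, more than this share was called of the venule list and less of the lymphotoxin and stromal lists, with no test of any list.

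The make-up of the skin samples differed along with these values. The 6 skeletal muscle genes summed to 20835 to 30024 CPM in WT, 22248 to 25765 in NL and 42.8 to 6038 in L. The 8 adipocyte genes summed to 7182 to 12769 CPM in WT, 5817 to 7667 in NL and 968 to 4599 in L, and the 6 keratinocyte genes to 8512 to 10438, 15260 to 17244 and 7803 to 22665. None of the genes of these 3 lists was at 0 in any skin library. The part of muscle, fat and epidermis in the lower *Meox2* and vessel gene levels of L skin was not tested.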

How the data were processed

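Poly-A RNA of 12 SDLN and 9 skin libraries was sequenced as paired reads. Per the submitters' processing notes, the authors used cutadapt 4.8, STAR 2.7.8a and RSEM 1.3.3 with the build GRCm38, and they deposited expected counts per gene, rounded to whole numbers and not normalized. The strand setting and annotation release are not given in the sources used here. Of 55491 rows, 55141 matched GENCODE M21, which gave positions and exon lengths, and 4 reporter rows at 0 were left out.

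Low genes were removed in R 4.3.3 with edgeR's filterByExpr (minimum count 10, total 15), leaving 16173 genes in SDLNs with all 8 of the set, and 19101 in skin with 5. Libraries were scaled by TMM, and each tissue was fitted as a whole with edgeR 4.0.16 (robust quasi-likelihood fit, F-test). The p-values were adjusted by Benjamini-Hochberg across every tested gene, and 0.05 was the threshold. The SE of a log2 fold change is its size divided by the square root of F. CPM values use the TMM library sizes. For r, 2 was the prior count of log2 CPM. DESeq2 1.42.0 and other settings were alternatives.

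The genes, marker lists and comparisons were chosen with earlier results of these data known. All 8 genes were named in every comparison, and of each list up to 3 called genes with the largest change. The 5 genes most like *Meox1*, *Glycam1* and *Prox1* were named, except 1 that is not reported here. Where a gene was at 0 in a whole group, its fold was computed against 3 counts per library. Replicates of each group differed by more than sampling noise, so none was counted as a repeat of another.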

Additional observations from a re-analysis of the deposited data

How the results depend on the processing

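No paired analysis was possible because the numbers in the labels run through each tissue and no groups compared share a number. With all libraries kept, the direction of each log2 fold change given (8 genes in SDLNs, 5 in skin) held under DESeq2, RLE scaling, no filter, *Xist* as a covariate and a fit of the compared groups alone. The last gave no value for *Chst4* in TG against WT after UVB. Counts of called genes moved more. DESeq2 called 132 genes for UVB in TG SDLNs, 2 of the set among them, 2 for TG against WT without UVB, 18 for TG against WT after UVB and 62 for NL against WT skin, where edgeR called 0 in each. In L against WT skin, DESeq2 called 8855 of 22627 tested genes and 2 of the 8 of the set. Of these, 1 was *Chst4*, whose few counts were in L alone, so nothing is read from that call. The fit without a filter also called 2 of the set and the *Xist* covariate 0, and the shares over all genes in these fits are not given here. Without a filter 1 gene was called for TG against WT after UVB. With the compared groups alone, 3156 genes were called for L against NL and 1 for NL against WT.

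With 1 library left out at a time, the count for UVB in TG SDLNs ran from 0 to 236, the highest without TG UVB replicate 12, and that of the set from 0 to 1. It ran from 0 to 1 for TG against WT without UVB, from 0 to 2 after UVB and from 0 to 1 of the set for L against WT skin. For L against NL it ran from 1182 to 5187, the lowest without NL replicate 3 and 1470 without NL replicate 2, where the lone NL library is assumed to vary like the other groups. Some small values turned. The log2 fold change ran from -0.44 to 0.10 for *Prox1* with UVB in TG, and from -0.22 to 0.33 for *Prox1*, -0.20 to 0.62 for *Pdpn* and -0.22 to 0.51 for *Meox1* in TG against WT without UVB. With UVB in WT it ran from -0.19 to 0.07 for *Flt4* and, without turning, from -1.57 to -0.15 for *Madcam1* and -1.73 to -0.27 for *Pdpn*. After UVB it ran from -0.57 to 1.10 for *Madcam1* and -0.15 to 1.44 for *Pdpn*. In skin it ran from -0.20 to 0.088 for *Meox1* in L against WT, from -0.65 to 0.12 for *Meox2*, -0.43 to 0.033 for *Flt4* and -0.0087 to 0.28 for *Meox1* in L against NL, and from -0.46 to 0.013 for *Flt4* in NL against WT. The causes were not tested.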
